A study of Homo sapiens and Mus musculus with 16 samples.

Results

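The terminal oligopyrimidine (TOP) transcripts described here are 10 messenger RNAs outside the ribosomal protein genes: EEF1A1, EEF1B2, EEF1D, EEF1G, EEF2, PABPC1, TPT1, NPM1, RACK1 and NAP1L1. They were taken by symbol because they are known TOP messages. The rule uses no measured value, but earlier results of these data were known when they were chosen. All 10 were in the human count table of 22286 genes and, ignoring letter case, in the mouse table of 15881 genes. P-body-seq was used to compare them, a method that sorts LSM14A-GFP particles from lysed cells. Their RNA is sequenced beside RNA of the cytoplasm. Per the study's methods, this cytoplasm is a resuspended pellet of the lysate, sampled before sorting, so it still holds the P-bodies. A change from cytoplasm to P-body thus compares relative levels in a part and in the fraction it was sorted from. The 16 libraries came from 4 cell types, with 2 P-body and 2 cytoplasm libraries each. HEK293T cells (a human embryonic kidney line) carried LSM14a-GFP, as did liver bud progenitors and day 20 neurons derived from UCLA4 (a human embryonic stem cell line), and mouse embryonic stem cells (mESC) of the line KH2 kept in serum-LIF. None of the groups lacked the transgene. In HEK293T and mESC it came from a lentiviral vector with an EF1a promoter, which is the promoter of EEF1A1 itself, and in UCLA4 it sat at the AAVS1 safe-harbour locus. HEK293T and mESC RNA was labelled total RNA and was made into libraries by the Snap seq protocol, whereas liver bud progenitor and neuron RNA was labelled polyA RNA and was made into libraries with a V4 ultra and Nextera XT kit. Library kind and cell type therefore cannot be told apart when HEK293T or mESC is set beside the other cells.

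A TOP message starts at its cap with a cytosine that is followed by an unbroken stretch of pyrimidines. The mTOR pathway controls the translation of such messages through LARP1, which binds the cap and the pyrimidine stretch when mTOR is inactive and keeps the message stable but untranslated. Most TOP messages encode ribosomal proteins and translation factors, so their shared start lets a cell set its protein-making capacity with its growth state. P-bodies are cytoplasmic condensates that hold untranslated messages and decay factors. Of the 10 members, EEF1A1, EEF1B2, EEF1D, EEF1G and EEF2 are elongation factor genes, PABPC1 encodes the poly(A)-binding protein and RACK1 a protein of the small ribosomal subunit. TPT1, NPM1 and NAP1L1 encode no translation factor: TPT1 is a growth-associated protein, NPM1 a nucleolar chaperone of ribosome assembly and NAP1L1 a histone chaperone.

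The start of each message is shown because the pyrimidine run at the cap is what defines the group. The letters below are RefSeq windows of the human build GRCh38.p14 read on the strand of the gene, with 10 bases upstream of the annotated transcript start and 20 bases from it, and capitals mark the pyrimidine run at or next to the start.
EEF1A1 (chr6:73521013-73521042, minus strand): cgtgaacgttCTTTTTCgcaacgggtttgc
EEF1B2 (chr2:206159885-206159914, plus strand): ctcttcgggtCCTTTTTCCTCTCTTCagcg
EEF2 (chr19:3985444-3985473, minus strand): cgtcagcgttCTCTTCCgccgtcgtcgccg
TPT1 (chr13:45341164-45341193, minus strand): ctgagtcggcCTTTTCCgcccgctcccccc
NPM1 (chr5:171387839-171387868, plus strand): agcctgcgtcCTTTCCCTggtgtgattccg
RACK1 (chr5:181243887-181243916, minus strand): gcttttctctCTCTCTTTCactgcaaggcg
NAP1L1 (chr12:76084666-76084695, minus strand): gctcttgggtCTTTTTTagcgccatctgct
EEF1G (chr11:62573872-62573901, minus strand): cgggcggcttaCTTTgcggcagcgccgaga
In 7 of the 8 windows the annotated first base is a C with at least 4 pyrimidines directly after it. The run is 7 bases long in EEF1A1, EEF2, TPT1 and NAP1L1, 8 in NPM1, 9 in RACK1 and 16 in EEF1B2. EEF1G differs, since its annotated first base is an A and its run of 4 pyrimidines starts at base 2. The starts of PABPC1 and EEF1D were not analysed here. The same start, searched on the strand of the transcript only, was held by 4.07% of the 35116 RefSeq windows used here, where a gene can have several windows. For gene lists a single window per gene was taken, at the start of its reference transcript where there was such a window. There it was held by 47 of 63 ribosomal protein genes (74.6%), 3 of 5 other TOP transcripts (60%) and 3 of 30 other translation factor genes (10%). None of the 10 relatives of the members with a window held it. In mouse, 5 of the 10 members had a GENCODE M21 transcript (build mm10) that starts in this way, and the leading 20 bases of each are shown because they allow the human and mouse runs to be read side by side.
Eef1b2: CTTTTTTTCCCTCagcgctg
Eef1d: CTCTCCTTTgcagtcctgag
Nap1l1: CTTTTTTagcgccatctgct
Pabpc1: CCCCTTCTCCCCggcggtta
Rack1: CTTTTTCTCCacagggtcgt
The leading bases of the human and mouse NAP1L1 transcripts are the same 20 letters.

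The libraries held 6368953 to 17972284 counts. A count of 3 in a library corresponds to 0.167 to 0.471 CPM (counts per 1000000 counts of the library). This mark for low levels was not used as a filter. Replicate libraries of a group had a Spearman correlation of 0.982 to 0.992 across genes, apart from the neuron P-body pair at 0.919. Ribosomal RNA genes took 3.13 to 12.7% of counts in P-body libraries and 10.3 to 23.2% in cytoplasm libraries (group means), and the values without them stand beside the results they change. The neuron cytoplasm showed all 10 neuron markers at 20 CPM or more (DCX at 5080 CPM), with a summed level of 13659.1 to 13784.3 CPM against 210.2 to 371.6 CPM in the other cells. It also held 6 of the 7 neural progenitor markers at that level. Their summed level there was 1879.3 to 1900.2 CPM, below the 2244.2 to 4137.3 CPM of the other cells, but MKI67 and TOP2A made up most of these sums. MKI67 was at 1104 CPM in neurons and at 1526, 2042 and 2451 CPM in HEK293T, liver bud progenitors and mESC. TOP2A was lowest in neurons too (195.9 CPM). NES (207.6 CPM), VIM (214.7 CPM) and HES5 (11.2 CPM) were instead highest in neurons. The other cells had at most 49.4 CPM of NES and 110.9 CPM of VIM. PAX6 and SOX2 in neurons lay between the values of the other cells. The liver bud progenitor cytoplasm showed 3 of 10 liver markers at that level (APOB at 280.7, HNF4A at 36.5 and TTR at 35.3 CPM), while ALB was at 0. All 6 primed pluripotency markers were at that level in the liver bud progenitor cytoplasm, with LIN28A at 616.4 CPM. Their summed level was 1491.5 to 1505.4 CPM, against 25.5 to 67.8 CPM in HEK293T and neurons. In mESC the same list summed to 1609.1 to 1632.6 CPM, with 4 of 6 at that level. The part of these markers in the results below was not tested. In mESC, 7 of 8 embryonic stem cell markers were at that level. HEK293T had 2 of the 5 kidney line markers at that level (summed level of all 5, 97.3 to 100.5 CPM), and liver bud progenitors also had 2 (82.6 to 95.4 CPM).

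Most members were abundant. In the cytoplasm PABPC1 ranked 13, 12, 26 and 9 among genes of HEK293T, liver bud progenitors, neurons and mESC, and EEF1A1 ranked 15, 23, 34 and 7. EEF1D was the least abundant member in each human group, at 8.8 to 27 CPM on average. The 10 members together took 0.826 ± 0.0126% of all counts in HEK293T P-bodies and 1.04 ± 0.0205% in the cytoplasm (SD, n = 2 libraries, as for the other cells). In neurons they took 0.496 ± 0.000301% in P-bodies and 0.622 ± 0.00924% in the cytoplasm. The order was the opposite in liver bud progenitors, with 1.74 ± 0.0161% in P-bodies and 0.987 ± 0.0143% in the cytoplasm, and in mESC, with 1.79 ± 0.0233% and 1.57 ± 0.00874%. In mESC, Npm1 (9229 CPM in P-bodies against 3993) and Pabpc1 (5710 against 3125) weighed most in this, while 6 of the 10 members were lower in P-bodies. Outside ribosomal RNA genes the shares were 0.866 and 1.24% in HEK293T, 2 and 1.25% in liver bud progenitors, 0.566 and 0.81% in neurons and 1.85 and 1.76% in mESC. All levels are relative to the library total, so in these bulk libraries fewer cells of a type and less RNA per cell cannot be told apart.

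**Figure D1:**
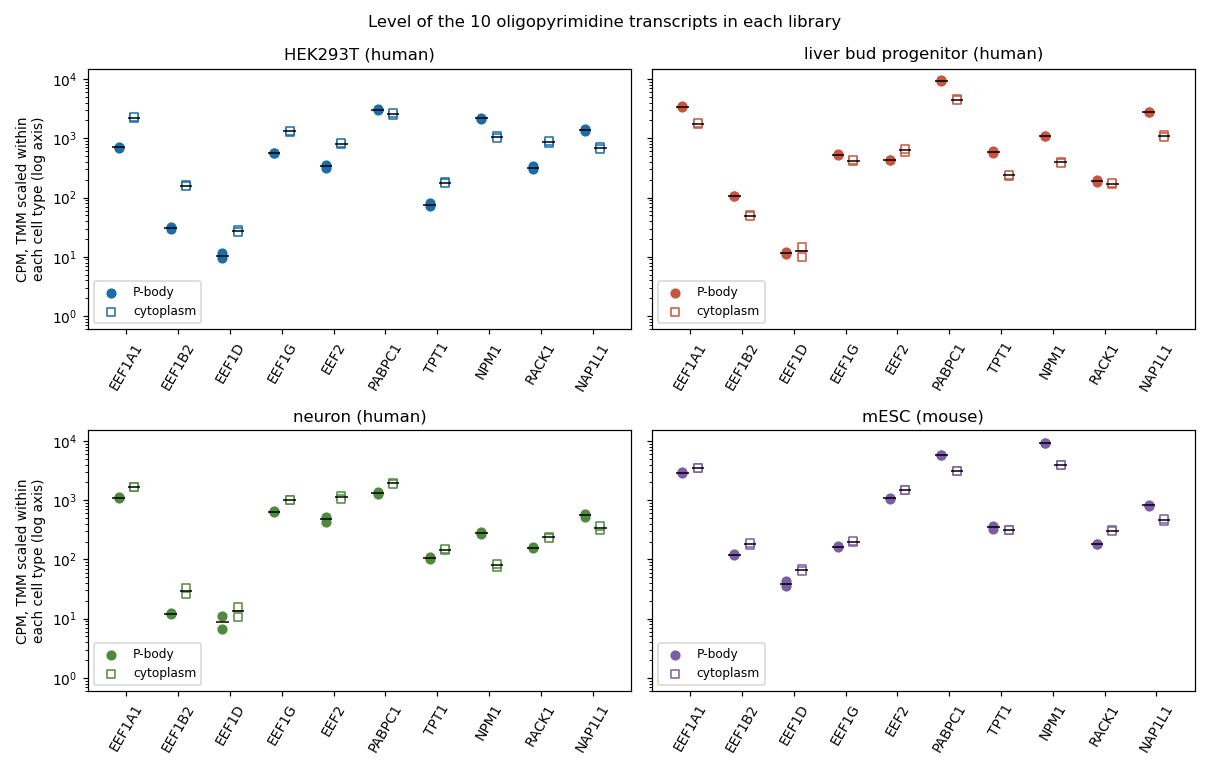
Level of each member in every library, as CPM scaled by the trimmed mean of M values (TMM) within each cell type, on a log axis; filled circles are P-body libraries, open squares cytoplasm libraries, and black lines group means of 2 libraries. NPM1 and NAP1L1 lie higher in P-bodies in all 4 panels, and EEF1A1 lies lower in P-bodies everywhere except in liver bud progenitors.

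The question of each comparison within a cell type was which members were held in P-bodies relative to the cytoplasm. In HEK293T, 3 members were higher in P-bodies and 7 lower by edgeR's quasi-likelihood test at an adjusted p of 0.05. Over all genes tested 19.3% were called higher and 22.8% lower, and of the genes whose mean reached 100 CPM 69.9% were higher and 22.4% lower. Of the members in liver bud progenitors, 7 were higher and 1 lower, where 21.4% of all genes were called higher and 17.1% lower and 66.2% and 24% of genes of at least 100 CPM. In neurons, 2 members were higher and 7 lower, against 14.6% and 14.1% of all genes and 40.2% and 41.2% of genes of at least 100 CPM. In mESC, 4 members were higher and 6 lower, against 25.8% and 20.6% of all genes and 68.6% and 21.2% of genes of at least 100 CPM. For abundant transcripts, the shares of members called lower were thus above the background in HEK293T, neurons and mESC, and the share called higher in liver bud progenitors was close to it. NPM1 and NAP1L1 were higher in P-bodies in all 4 cell types, EEF2 was lower in all 4, and the other members changed direction between cell types or missed the threshold in some. In HEK293T and mESC, the P-body and cytoplasm values did not overlap for any member. They overlapped only for EEF1D in the other cell types. The share of all genes without overlap was not computed, so whether the members differ from other genes in this cannot be said.

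**Figure D2:**
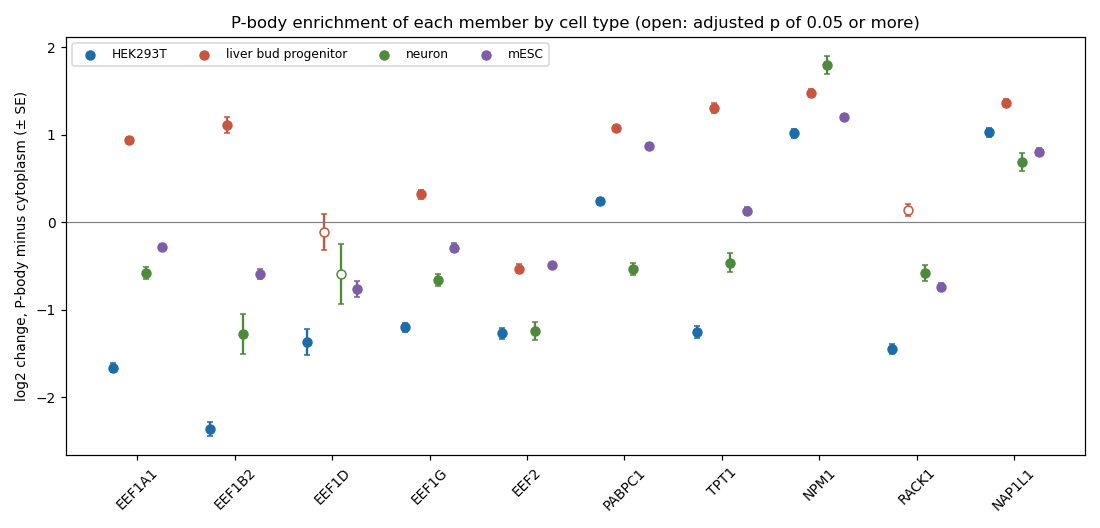
Log2 change of each member, P-body minus cytoplasm, with its standard error (SE) from the edgeR fit of 4 libraries; the 4 colours are cell types and open symbols missed an adjusted p of 0.05. The changes run from -2.36 (EEF1B2, HEK293T) to 1.80 (NPM1, neurons).

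EEF1A1 encodes the GTPase that carries aminoacyl-tRNA to the ribosome. It was lower in P-bodies of HEK293T, neurons and mESC and higher in those of liver bud progenitors. In HEK293T, EEF1A1 stood at 699.1 and 711.3 CPM in P-bodies and at 2192 and 2272 CPM in the cytoplasm. This is -1.66 ± 0.05 on the log2 scale (value ± SE, adjusted p = 4.68e-37 by edgeR), a relative level 3.16 times as high in the cytoplasm libraries. Liver bud progenitors had EEF1A1 at 3476 and 3350 CPM in P-bodies and at 1747 and 1806 CPM in the cytoplasm (0.94 ± 0.04, adjusted p = 2.86e-31). The cytoplasm levels of these cells were of the same order, and the P-body levels were far apart. HEK293T and liver bud progenitors differ in library kind, however, and their CPM values were scaled within each cell type. Neurons held EEF1A1 at 1085 and 1130 CPM in P-bodies and 1649 and 1668 CPM in the cytoplasm (-0.58 ± 0.07, adjusted p = 2.82e-05). In mESC, Eef1a1 was at 2898 and 2953 CPM in P-bodies and 3545 and 3539 CPM in the cytoplasm (-0.28 ± 0.03, adjusted p = 5.69e-08), the smallest of the 3 reductions.

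The 3 subunits of eEF1B, the complex that reloads eEF1A with GTP, are encoded by EEF1B2 and EEF1D (the nucleotide exchange subunits) and EEF1G (a structural subunit). EEF1B2 had the largest reduction of all members in HEK293T, at 28.9 and 32.3 CPM in P-bodies against 160.4 and 155.2 CPM in the cytoplasm, a 5.14-fold difference (log2 change -2.36 ± 0.08, adjusted p = 5.7e-33). Liver bud progenitors showed the opposite, with 105.9 and 106.3 CPM of EEF1B2 in P-bodies against 50.2 and 48.1 CPM in the cytoplasm (1.11 ± 0.09, adjusted p = 2.48e-17). In neurons EEF1B2 was low, at 11.8 and 12.4 CPM against 26 and 32.7 CPM (-1.28 ± 0.23, adjusted p = 0.00107). Thus EEF1B2 was the member with the widest span between cell types. In mESC, Eef1b2 was at 125.3 and 116.6 CPM in P-bodies and 176.3 and 188.1 CPM in the cytoplasm (-0.59 ± 0.06, adjusted p = 5.11e-09).

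EEF1G followed the direction of EEF1A1 in each cell type, with smaller changes in HEK293T and liver bud progenitors. In HEK293T, EEF1G was at 566.6 and 566.8 CPM in P-bodies and 1285 and 1321 CPM in the cytoplasm (-1.20 ± 0.05, adjusted p = 9.28e-30). Liver bud progenitor levels of EEF1G were 533.5 and 520.9 CPM in P-bodies and 411.6 and 431.4 CPM in the cytoplasm (0.32 ± 0.05, adjusted p = 9.83e-07), and this call was lost with scaling by library size only (0.14, adjusted p = 0.0531). Neuron P-bodies held EEF1G at 654.4 and 621.5 CPM against 1021 and 990.8 CPM in the cytoplasm (-0.66 ± 0.07, adjusted p = 1.98e-05). In mESC, Eef1g was at 166.7 and 162.4 CPM against 194 and 207.2 CPM (-0.29 ± 0.05, adjusted p = 7.75e-05).

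EEF1D was low in the human libraries and measured with less precision. In HEK293T, EEF1D was at 11.4 and 9.58 CPM in P-bodies and 28 and 26 CPM in the cytoplasm (-1.37 ± 0.15, adjusted p = 8.41e-12). Its values overlapped in liver bud progenitors, with 12.1 and 11.2 CPM in P-bodies and 10.1 and 14.8 CPM in the cytoplasm (-0.11 ± 0.21, adjusted p = 0.748). They overlapped in neurons too, with 6.73 and 10.9 CPM against 15.8 and 10.8 CPM (-0.59 ± 0.34, adjusted p = 0.224). Without the neuron P-body library 2 the neuron change was -0.98 (adjusted p = 0.013), so the neuron result for EEF1D depended on that library, and it passed in a single fit of all 12 human libraries as well (-0.70, adjusted p = 0.0407). In mESC, Eef1d was at 42.9 and 35.4 CPM in P-bodies and 69.5 and 63.5 CPM in the cytoplasm (-0.76 ± 0.09, adjusted p = 2.86e-07), the lowest log2 change of the members there.

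EEF2 encodes the GTPase that moves the ribosome along the message by a codon. It was the member that was lower in P-bodies of all 4 cell types. In HEK293T, EEF2 was at 356.2 and 317.4 CPM in P-bodies against 789.3 and 837 CPM in the cytoplasm (-1.27 ± 0.06, adjusted p = 1.46e-28). In liver bud progenitors EEF2 alone among the members was lower, at 437.7 and 432.2 CPM against 596.1 and 657.2 CPM (-0.53 ± 0.05, adjusted p = 5.77e-13). The cytoplasm of neurons held 1191 and 1060 CPM of EEF2 and the P-bodies 523.6 and 427.9 CPM (-1.24 ± 0.10, adjusted p = 1.05e-06). Its reductions in HEK293T and neurons were thus alike in size. In mESC, Eef2 was at 1063 and 1079 CPM in P-bodies and 1498 and 1507 CPM in the cytoplasm (-0.49 ± 0.03, adjusted p = 1.01e-11).

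PABPC1 encodes the protein that coats poly(A) tails and links them to the initiation machinery. It was higher in P-bodies of 3 cell types and lower in those of neurons. In HEK293T the excess was small, with 3074 and 3037 CPM in P-bodies and 2517 and 2644 CPM in the cytoplasm (0.24 ± 0.04, adjusted p = 3.55e-06). PABPC1 in liver bud progenitors reached 9486 and 9363 CPM in P-bodies against 4542 and 4405 CPM in the cytoplasm (1.08 ± 0.03, adjusted p = 3.41e-39), a 2.11-fold difference. Neurons had 1398 and 1291 CPM in P-bodies and 1986 and 1907 CPM in the cytoplasm (-0.53 ± 0.07, adjusted p = 8.37e-05). In no other group was PABPC1 as low as in the neuron P-bodies. Mouse Pabpc1 was at 5710 CPM in both P-body libraries and at 3143 and 3106 CPM in the cytoplasm (0.87 ± 0.03, adjusted p = 1.38e-17).

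RACK1 sits on the head of the small ribosomal subunit, where it docks signalling proteins. In HEK293T, RACK1 was at 304.4 and 335.6 CPM in P-bodies against 841.3 and 907.3 CPM in the cytoplasm (-1.45 ± 0.06, adjusted p = 2.74e-31). Liver bud progenitor values of RACK1 were 195.1 and 179.9 CPM in P-bodies and 168.1 and 172.8 CPM in the cytoplasm (0.14 ± 0.07, adjusted p = 0.122), and the sign turned with scaling by library size only (-0.05). The P-body values lay above the cytoplasm values there without passing the test. Neurons held RACK1 at 162.6 and 155.3 CPM against 242.7 and 230.9 CPM (-0.58 ± 0.09, adjusted p = 0.000458). In mESC, Rack1 was at 184.4 and 180.7 CPM against 309 and 300.5 CPM (-0.74 ± 0.05, adjusted p = 1.78e-12).

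TPT1 encodes translationally controlled tumour protein, a growth-associated protein that binds calcium and tubulin. In HEK293T, TPT1 was at 71.2 and 79.5 CPM in P-bodies against 179.8 and 178.7 CPM in the cytoplasm (-1.25 ± 0.07, adjusted p = 4.96e-23). TPT1 in liver bud progenitors was at 608.3 and 559.3 CPM in P-bodies against 233.2 and 238.8 CPM (1.31 ± 0.06, adjusted p = 1.29e-29), a 2.47-fold excess. Liver bud progenitors were thus the cells with a clear excess of TPT1 in P-bodies. In neurons TPT1 was at 101.6 and 109.5 CPM against 142.7 and 148.7 CPM (-0.46 ± 0.11, adjusted p = 0.00547), and the call was lost with scaling by library size only (-0.30, adjusted p = 0.0788) and without the neuron cytoplasm library 2 (-0.45, adjusted p = 0.0554). In mESC, Tpt1 was at 326.4 and 366.7 CPM in P-bodies and 316.2 and 315.2 CPM in the cytoplasm (0.13 ± 0.05, adjusted p = 0.0296). That mouse call was fragile, since the change was -0.27 (adjusted p = 4.37e-05) with scaling by library size only, 0.05 (adjusted p = 0.408) with edgeR's expression filter and 0.08 (adjusted p = 0.324) without the P-body library 2. It was also lost by DESeq2 (adjusted p = 0.114) and without either cytoplasm library (adjusted p = 0.0546 and 0.0634).

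NPM1 encodes nucleophosmin, which shuttles ribosomal subunits and histones through the nucleolus, and it was higher in P-bodies of all 4 cell types by 2.03- to 3.49-fold. In HEK293T, NPM1 was at 2111 and 2212 CPM in P-bodies against 1111 and 1018 CPM in the cytoplasm (1.02 ± 0.05, adjusted p = 7.05e-27). Liver bud progenitor P-bodies held 1101 and 1083 CPM of NPM1 and the cytoplasm 401.9 and 382.9 CPM (1.48 ± 0.05, adjusted p = 2.28e-35). Neurons had the largest excess of any member and cell type, with 266.8 and 285.6 CPM in P-bodies and 75.9 and 82.3 CPM in the cytoplasm (1.80 ± 0.10, adjusted p = 5.3e-08). This was so although neurons had the lowest NPM1 level in both fractions. In mESC, Npm1 was the most abundant member, at 9122 and 9337 CPM in P-bodies and 3988 and 3998 CPM in the cytoplasm (1.21 ± 0.03, adjusted p = 3.51e-20).

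NAP1L1 encodes a chaperone that hands histones H2A and H2B to chromatin, and it was higher in P-bodies of all 4 cell types by 1.61- to 2.59-fold. In HEK293T, NAP1L1 was at 1349 and 1409 CPM in P-bodies against 701.3 and 650.7 CPM in the cytoplasm (1.03 ± 0.05, adjusted p = 2.61e-26). NAP1L1 in liver bud progenitors was at 2830 and 2823 CPM against 1136 and 1048 CPM (1.37 ± 0.04, adjusted p = 4.67e-38). Neuron values were 515.8 and 594.6 CPM in P-bodies and 319.3 and 371.2 CPM in the cytoplasm (0.69 ± 0.10, adjusted p = 0.000153), the smallest excess. In mESC, Nap1l1 was at 834.5 and 801.4 CPM against 449.8 and 480.4 CPM (0.81 ± 0.04, adjusted p = 1.78e-14). The 2 members that encode histone or nucleolar chaperones were thus the ones that no cell type showed lower in P-bodies.

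The members were read beside other genes of the same pathway. In HEK293T the median log2 change of the members was -1.26, and all 79 ribosomal protein genes were lower with a median of -1.62, from RPL5 at -0.37 to RPS12 at -2.89. In liver bud progenitors the median of the members was 1.01, and 71 of 79 ribosomal protein genes were higher (median 0.92), with RPL34 at 1.83 (adjusted p = 4.89e-21). In neurons the medians were -0.58 and -0.49, with 38 ribosomal protein genes lower, RPL7A at -1.15 among them, and 2 higher, with RPLP2 at 0.73 (adjusted p = 0.0165). In mESC they were -0.28 and -0.68, with 70 of 78 ribosomal protein genes lower and 1 higher, from Rps2 at 0.14 (adjusted p = 0.0124) to Rpl39 at -1.46. In each cell type the members and the ribosomal protein genes thus had medians of the same sign, while the median over all genes tested was -0.01, -0.09, 0.19 and -0.11 in HEK293T, liver bud progenitors, neurons and mESC. Among genes of at least 100 CPM that median was 0.63, 0.55, -0.03 and 0.59.

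Of 9 other TOP transcripts, 7 were lower and 1 higher in HEK293T (median -0.35), and 7 were higher and 1 lower in liver bud progenitors (median 0.64). EIF4B, a cofactor of the initiation helicase, was higher in P-bodies of HEK293T (0.64), liver bud progenitors (1.04), neurons (0.56) and mESC (0.34). EIF3L, a subunit of initiation factor eIF3, was lower in HEK293T (-1.02) and neurons (-0.57) and did not pass in liver bud progenitors (0.16, adjusted p = 0.0802) or mESC (0.01, adjusted p = 0.905). In neurons 2 of the 9 were lower and 1 higher (median -0.22), and in mESC 4 of 8 were lower and 3 higher (median -0.16), with Eif3e at 1.24 and Eif3f at -0.90. In liver bud progenitors EIF3E was highest at 1.42, and VIM, the intermediate filament vimentin, was the lower member at -0.47 (adjusted p = 1.4e-06).

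Relatives of the members, which are paralogs or partners, included NAP1L3, a neural paralog of NAP1L1, and EFL1 and EFTUD2, GTPases related to EEF2. Of 13 relatives, 3 were higher and 6 lower in HEK293T (median -0.38), 5 higher and 3 lower in liver bud progenitors (0.47), 1 higher and 4 lower in neurons (-0.23), and 2 higher and 1 lower of 10 in mESC (0.12). EFL1 was higher in HEK293T (0.83, adjusted p = 4.91e-11), liver bud progenitors (0.53, adjusted p = 2.87e-06) and neurons (0.84, adjusted p = 0.0028), in contrast to EEF2. EFTUD2 was lower in the same 3 cell types (-0.85, -0.76 and -0.98). NAP1L3 in liver bud progenitors was higher (0.89, adjusted p = 5.2e-15) and PABPC1L, a germline paralog of PABPC1, was lower (-1.94, adjusted p = 1.36e-17), in contrast to PABPC1. PABPC1L was also lower in HEK293T (-0.74) and neurons (-1.76), and NAP1L3 was higher in HEK293T (0.69) and at 0.00 in neurons (adjusted p = 0.989). Eef1e1, an auxiliary protein of the tRNA synthetase complex, was higher in mESC P-bodies (1.33, adjusted p = 4.02e-16), and Eftud2 was at -0.01 (adjusted p = 0.871).

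Among 32 other translation factors, 9 were higher and 20 lower in HEK293T (median -0.44), 15 and 6 in liver bud progenitors (0.25), 8 and 9 in neurons (-0.20), and 10 and 12 of 31 in mESC (-0.02). EIF5B, which joins the ribosomal subunits, was higher in HEK293T (1.37), liver bud progenitors (1.14), neurons (2.34) and mESC (0.84). EIF6, an anti-association factor of the large subunit, was the lowest in HEK293T at -1.76. EIF4G1, the initiation scaffold, was the lowest in liver bud progenitors (-1.26), EIF3C in neurons (-1.14) and Eif3i in mESC (-0.72). EIF1AX was highest in liver bud progenitors (1.55) and the cap-binding factor Eif4e in mESC (1.70). Of 19 regulators of TOP translation, 7 were higher and 10 lower in HEK293T, 8 and 6 in liver bud progenitors, 6 and 7 in neurons, and 7 and 7 in mESC, with medians of -0.33, 0.17, -0.08 and -0.13. TSC1, a brake on mTOR, was higher (1.11) and the translation repressor EIF4EBP2 lower (-1.60) in HEK293T. LARP4 was highest in liver bud progenitors (1.32) and neurons (1.92), and the lowest were TSC2 (-1.28) and the mTOR partner MLST8 (-1.20), respectively. In mESC, Ssb, which encodes the La protein, was highest (1.36) and Tsc2 lowest (-0.66).

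**Figure D3:**
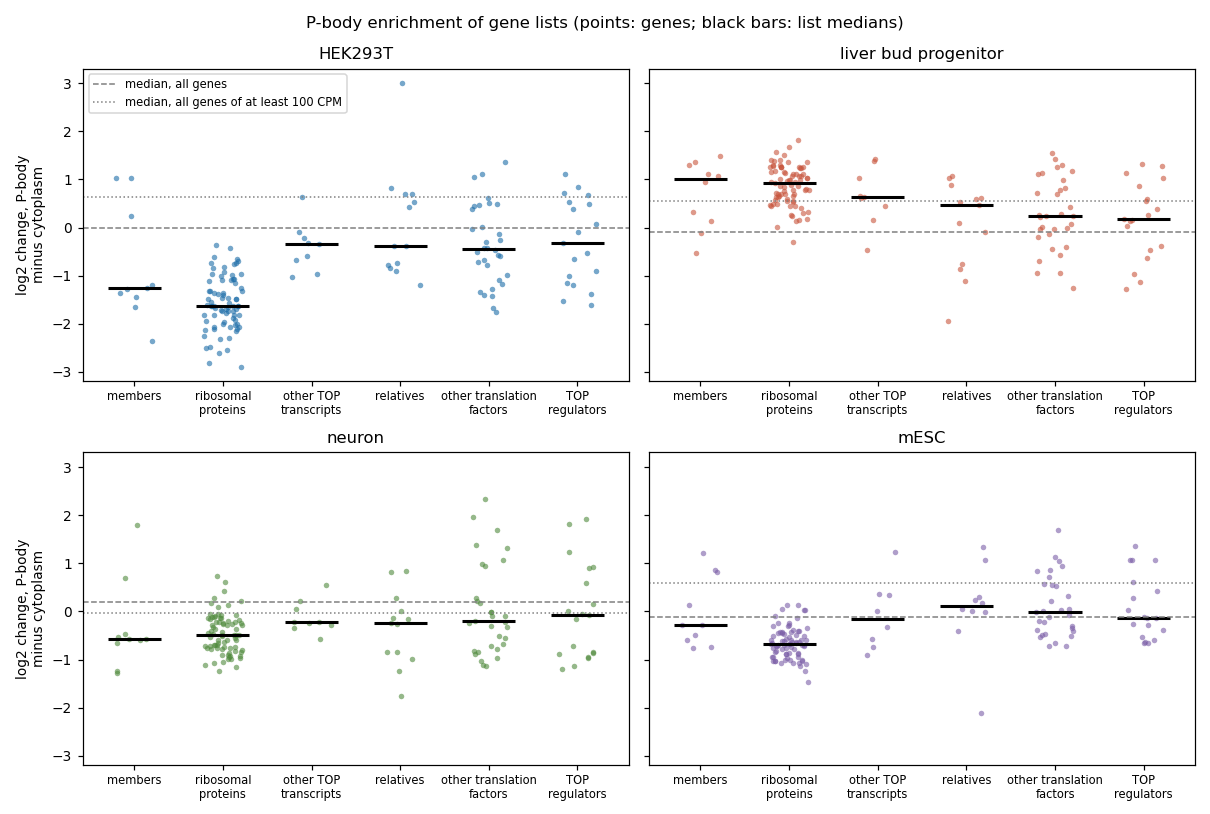
Log2 change, P-body minus cytoplasm, of each gene (points) in 6 gene lists, in 1 panel per cell type; black bars are list medians, and grey lines the medians of all genes tested (dashed) and of genes of at least 100 CPM (dotted). The medians of members and ribosomal proteins lie above the dotted line in liver bud progenitors (1.01 and 0.92) and below it in the other 3 panels.

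Neurons and liver bud progenitors carry the same library label, and the difference in their P-body enrichment was tested as an interaction over 8 libraries. It was lower in neurons for 8 members and higher for 1, where 8.5% of all genes were called lower and 9.21% higher. TPT1 fell by 1.78 on the log2 scale relative to liver bud progenitors (SE 0.11, adjusted p = 5.68e-08), PABPC1 by 1.62 (SE 0.08, adjusted p = 8.64e-09) and EEF1A1 by 1.53 (SE 0.08, adjusted p = 8.4e-09). EEF1B2 differed most, by -2.39 ± 0.20 (adjusted p = 1e-06). These 4 members changed sign between the cell types, and so did EEF1G (-0.99 ± 0.09, adjusted p = 2.84e-06). EEF2, lower in P-bodies of both cell types, differed by -0.72 ± 0.13 (adjusted p = 0.00131), RACK1 by -0.72 ± 0.12 (adjusted p = 0.00047) and NAP1L1 by -0.69 ± 0.11 (adjusted p = 0.000358). These last 3 differences fell short of the threshold with scaling by library size only (-0.36, -0.36 and -0.34, adjusted p = 0.0503, 0.0504 and 0.0872), which left 5 members lower. EEF1D did not pass (-0.50, interval -1.35 to 0.35, adjusted p = 0.47), although it did without the neuron P-body library 2 (-1.01, adjusted p = 0.039). NPM1 was the member with a larger excess in neurons (0.32 ± 0.10, adjusted p = 0.0373), and this was lost in 7 of 8 fits that left out a library (adjusted p = 0.0655 to 0.324), without ribosomal RNA genes (adjusted p = 0.0625) and in a single fit of all 12 human libraries (adjusted p = 0.127). The median difference of the members was -0.85, of ribosomal protein genes -1.42 (65 of 79 lower), of other TOP transcripts -0.88 (7 of 9 lower), of relatives -0.24, of other translation factors -0.19 and of all genes 0.23.

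Between HEK293T and liver bud progenitors, which differ in library kind as well as cell type, the median difference of the members was -1.16. The enrichment of 9 members was lower in HEK293T and of 0 higher, where 12.5% of genes were called lower and 15% higher. The count higher was also 0 at an unadjusted p under 0.05 and by DESeq2, since all 10 differences were below 0. EEF1B2 differed by -3.25 ± 0.13, EEF1A1 by -2.38 ± 0.06 and TPT1 by -2.33 ± 0.10. RACK1 (-1.36), EEF1G (-1.30), EEF1D (-1.03), PABPC1 (-0.60), EEF2 (-0.52) and NPM1 (-0.23) were lower by less. The call of NPM1 was lost without the HEK293T P-body library 1 (-0.11), the HEK293T cytoplasm library 1 (-0.16), the liver bud progenitor P-body library 1 (-0.22) or the liver bud progenitor cytoplasm library 2 (-0.13). NAP1L1 did not pass (-0.12, interval -0.25 to 0.02, adjusted p = 0.237), although it did with scaling by library size only (-0.29), with edgeR's expression filter (-0.30) and without ribosomal RNA genes (-0.19).

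Between HEK293T and neurons, 6 members were lower in HEK293T and 2 higher, where 6.35% of genes were called lower and 6.19% higher. The 6 were EEF1A1 (-0.94 ± 0.08), EEF1B2 (-0.95 ± 0.20), RACK1 (-0.73 ± 0.11), TPT1 (-0.64 ± 0.13), NPM1 (-0.64 ± 0.10) and EEF1G (-0.40 ± 0.08). Without the HEK293T P-body library 1, 3 members were lower, and the calls of EEF1B2, EEF1G and TPT1 were lost. PABPC1 was higher in HEK293T (0.92 ± 0.08), and NAP1L1 too (0.48 ± 0.12), although its call was lost with scaling by library size only (0.05, adjusted p = 0.858), with the expression filter (0.34, adjusted p = 0.083) and without any of 3 libraries (HEK293T P-body 2 or cytoplasm 2, or neuron cytoplasm 2). EEF2 (0.11, interval -0.13 to 0.36) and EEF1D (-0.64, interval -1.38 to 0.11) did not pass, although EEF1D did without the neuron P-body library 1 (-0.94, adjusted p = 0.024). The 3 comparisons share libraries and are not independent of each other. No test was made between mouse and human cells, whose genes were counted on different genomes.

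**Figure D4:**
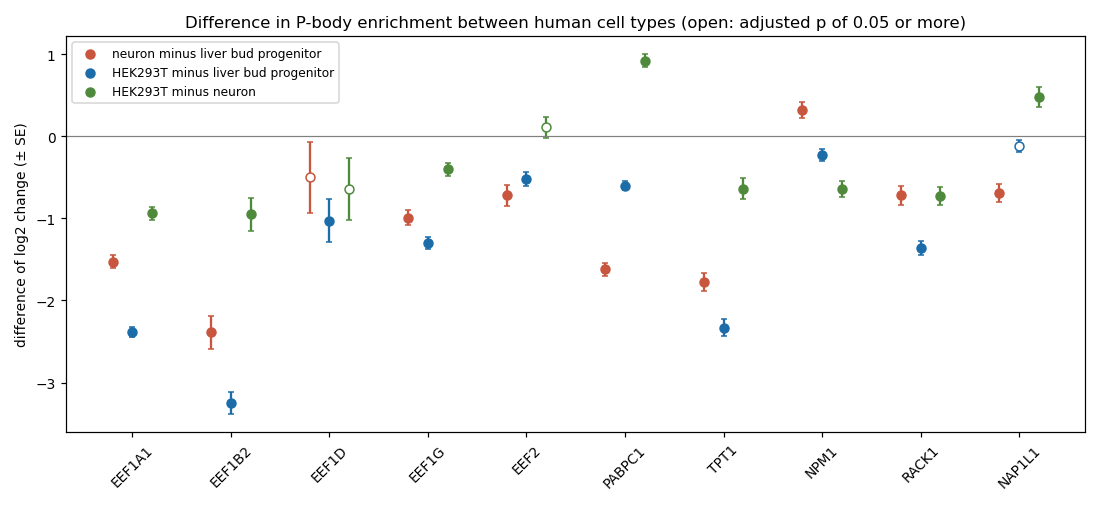
Difference between human cell types in the log2 change from cytoplasm to P-body, with its SE, for each member; colours are the 3 pairs of cell types and open symbols missed an adjusted p of 0.05. In both contrasts with liver bud progenitors the values lie below 0 for all members, except NPM1 in neurons minus liver bud progenitors at 0.32.

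To see in which fraction neurons and liver bud progenitors differed, the levels were compared within each fraction. In the cytoplasm 3 members were higher in neurons and 5 lower, against 26% and 25.8% of all genes. EEF1G was higher in neurons (1102 and 1069 CPM against 383.5 and 403.4, 1.46 ± 0.07), as were EEF2 (1.05 ± 0.07) and RACK1 (0.68 ± 0.08). NPM1 was lower (81.9 and 88.8 CPM against 374.5 and 358, -2.10 ± 0.09), as were NAP1L1 (-1.45), PABPC1 (-0.99), EEF1B2 (-0.54) and TPT1 (-0.49). EEF1A1 did not pass in the cytoplasm (1780 and 1801 CPM against 1628 and 1688, 0.11, interval -0.02 to 0.24), and scaling by library size only gave -0.27 (adjusted p = 0.000899). EEF1D did not pass either (0.30, interval -0.13 to 0.72), although it did without the neuron cytoplasm library 2 (0.53, adjusted p = 0.0354), and it was at -0.01 without the neuron cytoplasm library 1.

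In P-bodies 1 member was higher in neurons and 6 lower, against 18.4% and 22.7% of all genes. EEF1A1 was lower there (1085 and 1148 CPM against 3430 and 3294, -1.59 ± 0.06, adjusted p = 4.2e-08), and EEF1B2 was 8.57-fold lower (11.8 and 12.6 CPM against 104.5 and 104.6). PABPC1 was 6.86-fold lower in neuron P-bodies (1397 and 1311 CPM against 9361 and 9206), TPT1 5.4-fold, NAP1L1 4.97-fold and NPM1 3.86-fold. NPM1 was lower in both fractions of neurons. EEF1G was slightly higher in neuron P-bodies (0.31 ± 0.07, adjusted p = 0.0046). EEF2 (0.16, interval -0.02 to 0.34), RACK1 (-0.21, interval -0.38 to -0.03, adjusted p = 0.0988) and EEF1D (-0.36, interval -1.03 to 0.30) did not pass. EEF2 passed with scaling by library size only (0.30), with the expression filter (0.35), by DESeq2 (0.24) and without the neuron P-body library 2 (0.29). RACK1 passed without either neuron P-body library (-0.23 and -0.18), and EEF1D without the neuron P-body library 2 (-0.77, adjusted p = 0.0183).

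Base composition moved with these values. The coding sequences of NAP1L1, NPM1, TPT1, EEF1B2, PABPC1 and EEF1A1 have 39.1 to 48.2% GC, and those of EEF1G, RACK1, EEF2 and EEF1D 54.5 to 64.9%. A single transcript per gene was used. For EEF1D it has 1941 coding bases (64.9% GC) in human and 843 (54.3% GC) in mouse, so its GC and length depend on the transcript taken. In liver bud progenitors the 6 members of lower GC had log2 changes of 0.94 to 1.48 and the 4 of higher GC -0.53 to 0.32, a Spearman correlation of -0.98 over the 10 members. It was -0.52 in HEK293T, -0.66 in neurons and -0.73 in mESC. In HEK293T the 6 members of lower GC ran from -2.36 to 1.03, and in neurons from -1.28 to 1.80, so the order by GC was less complete there. Over genes of at least 100 CPM the correlation was -0.35 for HEK293T, -0.66 for both liver bud progenitors and neurons, and -0.63 for mESC. Coding length gave 0.01, -0.71, -0.33 and 0.19 over the members. The points of a panel share the same 4 libraries, and the part of base composition in the results was not tested.

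**Figure D5:**
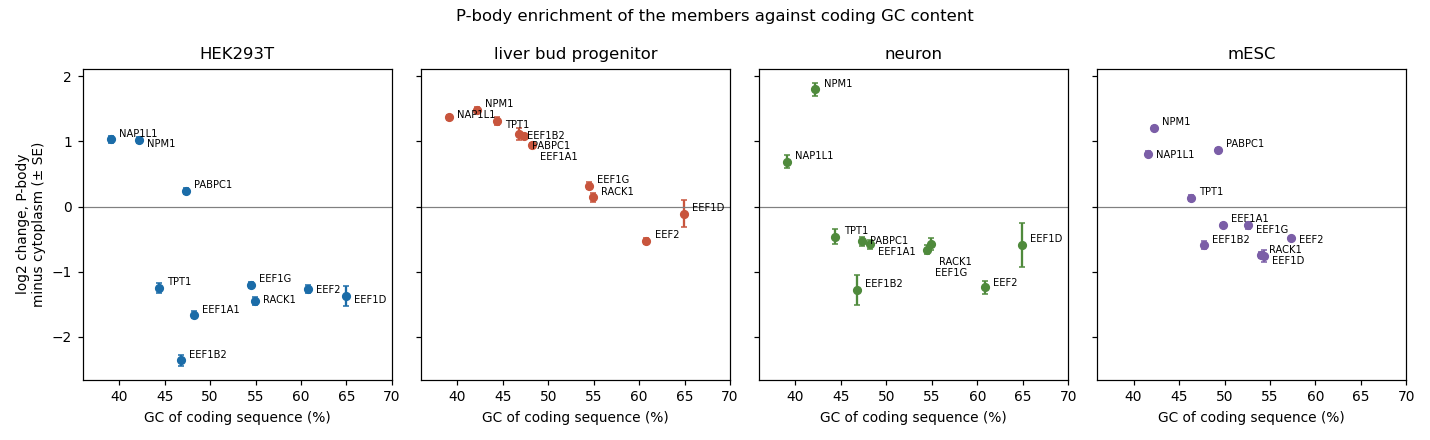
Log2 change of the members (P-body minus cytoplasm, with SE) against the GC content of the coding sequence in percent (human sequences in the first 3 panels, mouse sequences for mESC). The 10 members fall nearly in the order of GC in liver bud progenitors (Spearman -0.98) and are more scattered in HEK293T (-0.52).

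Over the 12 human libraries the mean centred log2 profile of the members was most like that of ADIPOR1, an adiponectin receptor gene (Pearson r = 0.995), HSPA8, a constitutive chaperone of the heat shock family (0.983), the ribosomal protein genes RPS3A (0.978) and RPL14 (0.977), and ATP5MC3 of the ATP synthase (0.977). These came from 6921 genes of at least 20 CPM. Of the 75 ribosomal protein genes ranked, 12 were among the 50 most alike, as was 1 of 9 other TOP transcripts. Members were not alike among themselves: the correlation with the mean of the other members was 0.956 for EEF1B2, 0.601 for PABPC1 and 0.564 for EEF1A1, but 0.014 for EEF1G and -0.170 for EEF2. These libraries form 6 groups of 2 with differing library kind, so the correlations are given as a description of these libraries.

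Several members have near-identical copies elsewhere in the genome, and reads may have been divided or lost among them. GENCODE v44 names 156 pseudogenes after the members, 49 for EEF1A1, 49 for NPM1, 15 for TPT1, 13 for PABPC1 and 0 for EEF2. The human table listed 2 of these copies, EEF1DP3 with 36 counts over all libraries (1.97% of the counts of EEF1D) and PABPC1P2 with 90 counts (0.0193% of those of PABPC1). Adding these 2 copies changed no call, and the other copies were not analysed here, so these shares set no limit on the reads that the members may have lost. TPT1 lies opposite the antisense gene TPT1-AS1, which had 1 to 53 counts per library, and the strand used in counting is not given in the sources used here. In hg38 the genes lie on chromosome 6 (EEF1A1, 73489308 to 73525587), 2 (EEF1B2, 206159585 to 206162928), 11 (EEF1G, 62559596 to 62574086), 19 (EEF2, 3976056 to 3985463), 13 (TPT1, 45333471 to 45341284), 5 (NPM1, 171387116 to 171411810, and RACK1, 181236897 to 181248096), 12 (NAP1L1, 76036585 to 76084735) and 8 (EEF1D, 143579697 to 143599541, and PABPC1, 100685816 to 100722809).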

How the data were processed

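Raw counts, whole numbers for each gene symbol, were deposited by the authors, mapped to hg38 or mm10, and the labels name DESeq2 among their tools. Per the study's methods, snapTotal-seq reads went through the nf-core pipeline with salmon and Smart-seq reads through hisat and featureCounts. The kits of the polyA RNA libraries are those that these methods name for Smart-seq. No label states which pipeline made the polyA RNA columns themselves. No gene in either table totalled under 10 counts. Deposited tables of the authors' own fold changes were not used. Reads of near-identical copies may be divided or dropped, which can lower a gene's count. Totals were 6368953 to 17972284 counts per library, and intervals cover the spread between libraries.

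Genes with any count were tested in each comparison with edgeR 4.0.16 (TMM, glmQLFit, glmQLFTest, two-sided, R 4.3.3), with Benjamini-Hochberg adjustment over all genes tested and a threshold of 0.05. CPM values were scaled by TMM within each comparison, so a library's values differ slightly between comparisons. The SE is the size of the log2 change divided by the square root of the quasi-likelihood F. Intervals are at 95% by a normal approximation from that SE, so they can be narrower than the test implies. Fits were tested on simulated data. Alternatives were size factors of the relative log expression kind, library size only, edgeR's expression filter (filterByExpr), no filter, DESeq2 1.42.0, a replicate block, ribosomal RNA genes left out, pseudogene counts added, a single fit of the 12 human libraries, and each library left out. The members and lists were chosen with earlier results of these data known. All members were named in each comparison, and of each other list the genes with the highest and lowest log2 change at a mean of at least 20 CPM, apart from an item that is not reported here. Of further genes, the 5 most alike in profile (log2 CPM, prior count 2) were named. The background of genes of at least 100 CPM and the crossed pairing were added after seeing the data. The study calls its 2 samples per group biologically independent, but no label names separate cultures, so p-values measure only the spread between these samples. Starts were read from RefSeq promoter windows (GRCh38.p14, with none of chromosome 8, where PABPC1 and EEF1D lie, used here) and GENCODE M21 transcripts, and GC from GENCODE coding sequences (v44 and M21).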

Additional observations from a re-analysis of the deposited data

Results flagged for a closer look

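The differences below are members whose P-body enrichment (log2 change from cytoplasm to P-body) differed between human cell types by the edgeR interaction test over 8 libraries. Between neurons and liver bud progenitors, with the same library label, the differences were -2.39 (EEF1B2), -1.78 (TPT1), -1.62 (PABPC1), -1.53 (EEF1A1), -0.99 (EEF1G), -0.72 (EEF2), -0.72 (RACK1), -0.69 (NAP1L1) and 0.32 (NPM1). Between HEK293T and liver bud progenitors they were -3.25 (EEF1B2), -2.38 (EEF1A1), -2.33 (TPT1), -1.36 (RACK1), -1.30 (EEF1G), -1.03 (EEF1D), -0.60 (PABPC1), -0.52 (EEF2) and -0.23 (NPM1). Between HEK293T and neurons they were -0.95 (EEF1B2), -0.94 (EEF1A1), -0.73 (RACK1), -0.64 (TPT1), -0.64 (NPM1), -0.40 (EEF1G), 0.48 (NAP1L1) and 0.92 (PABPC1). Library kind and cell type cannot be told apart in the contrasts with HEK293T. Leaving out ribosomal RNA genes ended the call of NPM1 between neurons and liver bud progenitors (0.27, adjusted p = 0.0625) and gave NAP1L1 a call between HEK293T and liver bud progenitors (-0.19), and no other call of a member here changed. Coding GC content differed between the members, and its part was not tested.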

How the results depend on the processing

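Of 1280 values of single members under an alternative, 1223 kept their direction and their side of the threshold, 32 lost a call, 15 gained one and 10 changed sign, and in HEK293T none of the 140 did so. With scaling by library size only, the log2 value was -0.05 for RACK1 in liver bud progenitors, -0.27 for TPT1 in mESC, -0.32 for EEF2 in HEK293T minus neurons, and -0.27 for EEF1A1 and -0.09 for EEF1D in neuron against liver bud progenitor cytoplasm. That scaling moved the median of all genes to -0.51 in mESC from -0.11, to -0.28 from -0.09 in liver bud progenitors and to 0.58 from 0.23 in neurons minus liver bud progenitors. EEF2 in HEK293T minus neurons was -0.03 with filterByExpr. Members lower in neurons minus liver bud progenitors were 5 with library size only, and members higher were 0 without ribosomal RNA genes and in the single fit of human libraries, and 0 to 1 with a library left out. Members higher in HEK293T minus neurons were 1 with library size only or filterByExpr and 1 to 2 with a library left out, and members lower 3 to 7. Members higher in neuron P-bodies than in liver bud progenitor P-bodies were 2 with library size only, filterByExpr or DESeq2 and 1 to 2 with a library left out. With a library left out, EEF1D ranged from -0.35 to 0.16 (liver bud progenitors) and from -0.01 to 0.61 (cytoplasm comparison), NAP1L1 from -0.18 to 0.00 in HEK293T minus liver bud progenitors, and EEF2 from -0.02 to 0.26 in HEK293T minus neurons. The cause was not tested. The lone library left in such a group is assumed to vary like the other groups.

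Same-numbered libraries deviated with correlations of -0.104, 0.063, 0.142 and -0.033 in HEK293T, liver bud progenitors, neurons and mESC, so the numbers were not taken to pair the samples. With a replicate block, 3 members were higher and 7 lower in HEK293T, 7 and 1 in liver bud progenitors, 2 and 7 in neurons and 4 and 6 in mESC, as without it, and no other count of members changed. A crossed replicate block in HEK293T gave 3 and 7 too. EEF1D was the human member with the fewest counts, 1832 over all libraries.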
